A study of Mus musculus with 80 samples.

Results

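The comparison described here set AgRP neurons labelled as knockouts of the clock gene Bmal1 against AgRP neurons of floxed controls, all after leptin. The libraries were chosen by their labels: 6 carried the label AgRP-BMAL1-KO with leptin administration and 6 the label WT-BMAL1fx with leptin administration, 12 of the 80 libraries in the deposited table. Each genotype had 3 libraries collected at ZT2 and 3 at ZT14, where ZT is zeitgeber time, the hours since lights on, so that ZT2 falls early in the light phase and ZT14 early in the dark phase. The knockout genotype was AGRP-Cre;BMAL1fx and the control genotype was WT;BMAL1fx, so both carried the floxed Bmal1 allele and both received leptin, and Cre was in the knockout alone. Loss of Bmal1 and carriage of the AGRP-Cre driver therefore cannot be told apart in these libraries. The labels give no leptin dose, no age and no strain beyond these alleles.

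The sorted material came from mice with a GFP reporter for Npy: arcuate nucleus slices were dissociated, GFP-positive cells were collected by FACS, and their RNA was amplified with a SMART-seq kit. The labels do not say that the replicates of a group came from separate mice, so every p-value rests on differences among libraries that could be technical repeats. A parallel set of 13 libraries of both genotypes after PBS, and 5 libraries of both genotypes at ZT5 with no treatment given, serve below only to show where the result after leptin differs or is shared.

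BMAL1 pairs with CLOCK, or with its relative NPAS2, on E-box motifs of DNA, and the pair drives the genes of its own repressors, the period and cryptochrome proteins, along with the REV-ERB receptors, which repress Bmal1 in turn. AgRP neurons of the arcuate nucleus drive feeding, make the peptides AgRP and NPY together with GABA, and are inhibited by the hormone leptin. Leptin acts on its receptor through JAK2 and STAT3 and induces SOCS3, which shuts that signal off.

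The 12 libraries held between 9.91 and 34.0 M reads (M, 1e6), with a median of 11.9 M in the knockout and 15.9 M in the control. Between 14724 and 16310 genes had a value above 0. The defining transcripts of the sorted neurons were high in every library: Agrp stood at 83911, 119144 and 154458 normalised counts in the 6 knockout libraries and at 67526, 95799 and 123095 in the 6 control libraries (lowest, median and highest), and Npy at 265399.7, 407753 and 530816 in the knockout and at 258763, 353249.8 and 432861 in the control. These are the authors' normalised counts, which are reads per gene scaled for the depth of each library and not for gene length. Both ranges overlapped between genotypes. On the first principal component, which held 23.3% of the variance among the 12, control ZT14 replicate 1 and knockout ZT2 replicate 3 stood apart from the other libraries, and results that rest on them are given with and without them.

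The targeted gene was checked first. Bmal1, listed as Arntl (chr7:113207465-113314126 of GRCm38, protein-coding), had 436, 338 and 259 normalised counts in the 3 knockout libraries at ZT2, against 682, 832 and 1211 in the 3 control libraries at ZT2. At ZT14 it had 262, 108 and 146 in the knockout, against 353, 223 and 277 in the control. Every knockout value at ZT2 lay below every control value, whereas at ZT14 the ranges overlapped. The pooled difference, knockout minus control on the log2(normalised count + 1) scale with ZT as a term, was -1.09 ± 0.24 (SE, n = 6 each), with an adjusted p of 0.562 by limma across all genes, so Arntl did not pass the threshold of 0.05. DESeq2 on the recovered whole reads gave it an adjusted p of 0.0464. Gene-level values count reads from all exons of a gene, including any left by the deletion, and the labels do not say which exons were floxed.

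Across the genome, 2 of 13402 genes tested differed between knockout and control after leptin when both times were pooled, which is 0.0149% of the genes, and both were higher in the knockout. No gene was lower at that threshold. Without regard to any threshold, 6808 genes had a difference above 0 and 6594 below it. At an unadjusted p under 0.05 there were 263 genes higher and 365 lower, 4.69% of those tested. In 23 genes, 0.172%, the 6 knockout values and the 6 control values did not overlap, with 12 higher (0.0895%) and 11 lower (0.0821%) in the knockout. Such counts grow when fewer libraries are compared, to at most 42 higher and 37 lower with 1 library left out, knockout ZT2 replicate 3, and to 59 and 64 without both libraries that stood apart. Counts by other tools ranged from 2 genes with edgeR's quasi-likelihood test to 15 with DESeq2, of which 9 were higher and 6 lower. With 1 library left out, limma called between 1 and 4 genes, 4 without control ZT2 replicate 3, when Cd24a and Nr1d2 passed too, and 1 without any of the 8 libraries named below for Fstl5.

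Hsd11b2, which encodes the enzyme that converts active glucocorticoids to their inactive keto forms and so shields the mineralocorticoid receptor, showed the largest difference. It had 3749, 2901 and 2517 normalised counts in the knockout at ZT2, against 7.57, 0 and 0 in the control at ZT2. At ZT14 the values were 2188, 2092 and 3005 in the knockout, against 0, 2.72 and 0 in the control. The groups did not come near each other: the lowest knockout value was 276 times the highest control value, and the 6 knockout libraries held 15153 reads of the gene in all against 13 in the 6 control libraries, 4 of which had none. The log2 difference was 10.56 ± 0.49 (SE, n = 6 each, adjusted p = 2.08e-08 by limma), a size set in part by the pseudocount of 1, since it was 8.75 with a pseudocount of 5 and 11.28 with 0.5. Hsd11b2 passed the test under every alternative tried for the leptin libraries. The difference was alike at both times, at 10.52 at ZT2 and 10.60 at ZT14.

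Fstl5, a gene for a secreted follistatin-like glycoprotein (chr3:76074270-76710019), was the second. It stood at 547, 586 and 974 normalised counts in the knockout at ZT2, against 285, 251 and 351 in the control at ZT2. At ZT14 it stood at 512, 516 and 587 in the knockout, against 214, 213 and 267 in the control. No knockout library was as low as any control library. The log2 difference was 1.21 ± 0.17 (SE, n = 6 each, adjusted p = 0.0248 by limma). The call was a narrow one: it was lost when any 1 of 8 libraries was left out (knockout ZT14 replicates 1, 2 and 3, knockout ZT2 replicate 2, control ZT14 replicates 2 and 3, and control ZT2 replicates 1 and 2), with adjusted p between 0.0528 and 0.133. It was also lost without the 2 libraries that stood apart (0.057), without the ZT term (0.0571), with sequencing depth as a covariate (0.0554) and in a fit over all 25 leptin and PBS libraries (0.128). The log2 difference stayed near the same size throughout.

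**Figure D1:**
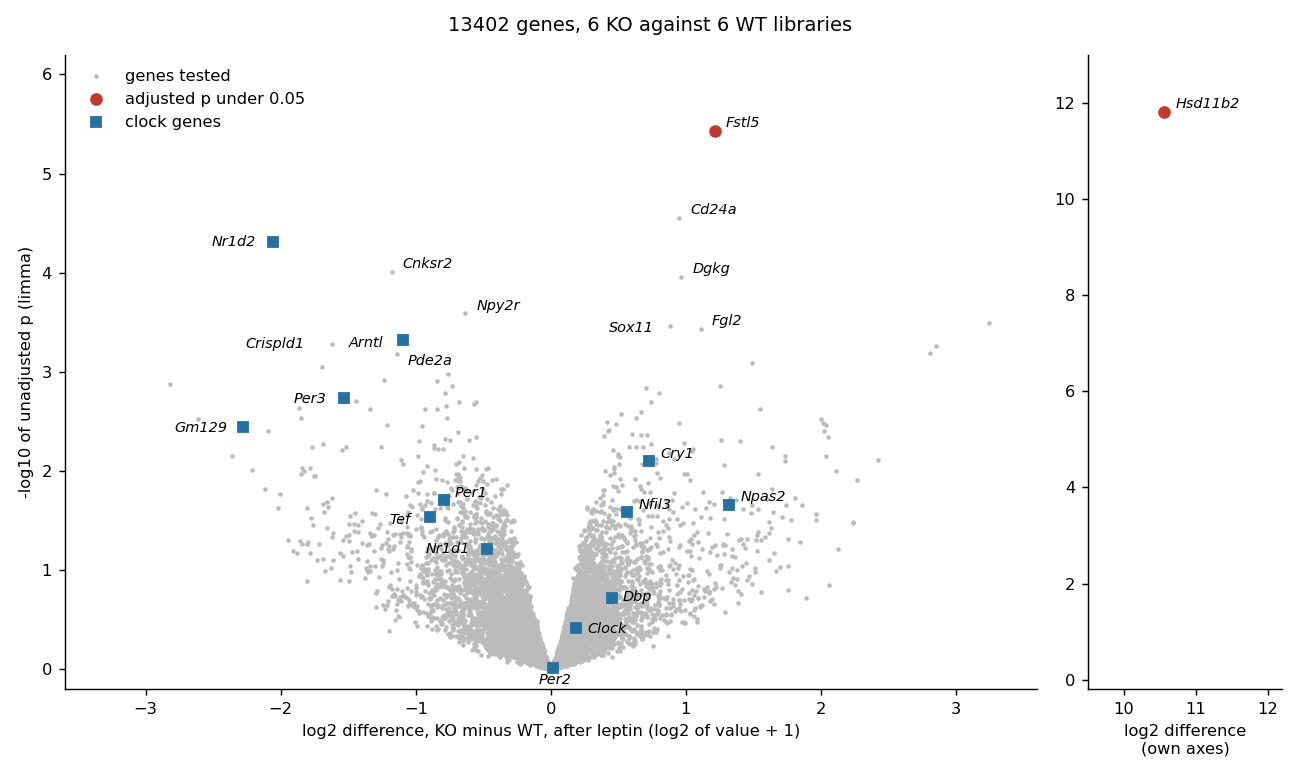
Difference between knockout (KO) and control (WT) after leptin for each of the 13402 genes tested (x axis, log2, knockout minus control) against the -log10 of its unadjusted limma p (y axis), with Hsd11b2 on its own axes because of its size. Red points passed the adjusted threshold of 0.05 and blue squares are clock genes. Apart from Hsd11b2 at 10.56 and Fstl5 at 1.21, no gene passed.

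Hsd11b2 lies on the chromosome that also holds Agrp, the gene that gives the driver its name. The gene spans chr8:105518755-105523988 on the plus strand, and its end is 42.71 kb from the near end of the Agrp transcript Agrp-201 (chr8:105566698-105568298, minus strand, GENCODE M21). Of the 14 tested genes around Agrp, Hsd11b2 was the only one that passed the test. Atp6v0d1, which encodes a subunit of the vacuolar proton pump and is the neighbour with the next smallest p-value, had a log2 difference of 0.24 ± 0.11 (adjusted p = 0.995). Rltpr, a capping protein regulator, had -0.82 ± 0.42 (adjusted p = 0.995), and Agrp itself 0.28 ± 0.17 (adjusted p = 0.995). Without the 2 libraries that stood apart, Rltpr passed at ZT14 (-1.94, adjusted p = 0.0162 by limma), where many more genes were called. Of these 14 genes 5 had a difference above 0 and 9 below it, with a median of -0.05, beside 0.004 over all genes tested.

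**Figure D2:**
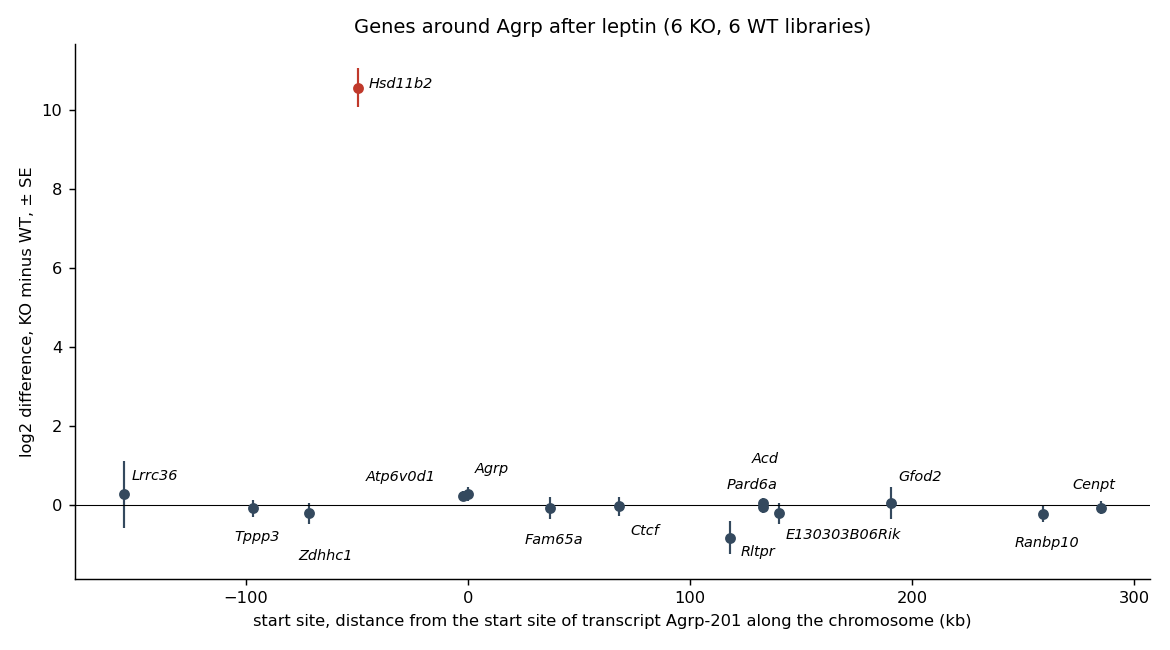
Difference between knockout and control after leptin (y axis, log2, with SE) for Agrp and the genes around it, placed by the distance of their start site from that of Agrp-201 (x axis, kb). Hsd11b2, at -49.543 kb, stands at 10.56. None of the other neighbours passed, and the lowest, Rltpr, stands at -0.82.

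Of the genes that were higher in the knockout with the next smallest p-values, none passed the threshold by limma. Cd24a, which encodes a heavily glycosylated membrane-anchored protein, stood at 3607, 4139.9 and 4587 normalised counts in the knockout (lowest, median and highest of 6), against 1524, 2205 and 3042 in the control. The groups did not overlap, and the log2 difference was 0.95 ± 0.16 (adjusted p = 0.125 by limma). It passed with DESeq2, with library weights and with depth as a covariate. Sox11, a transcription factor of developing neurons, also had no overlap, at 2891, 3315 and 5488 in the knockout, against 1481, 1724 and 2826 in the control (0.88 ± 0.19, adjusted p = 0.493).

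Dgkg, a kinase that turns diacylglycerol into phosphatidic acid, had 2198, 3032 and 3669 normalised counts in the knockout, against 829.9, 1652 and 2589 in the control, with some overlap and a log2 difference of 0.97 ± 0.19 (adjusted p = 0.247). Fgl2, a fibrinogen-like protein, had a difference of 1.11 ± 0.24 (adjusted p = 0.493). The kinase gene Sgk3, a relative of the glucocorticoid-induced kinase SGK1, had 1.25 ± 0.32 (adjusted p = 0.804), and Crem, a transcription factor of the cAMP pathway, had 0.71 ± 0.18 (adjusted p = 0.806). These are values of genes that did not pass with limma; Dgkg, Sox11, Fgl2 and Sgk3 passed with DESeq2.

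On the lower side the smallest p belonged to Nr1d2, the gene of the clock repressor REV-ERBβ, with a pooled log2 difference of -2.06 ± 0.36 (adjusted p = 0.165 by limma), described by time below. Cnksr2, a scaffold of RAS signalling at the synapse, had 81.3, 126 and 167 normalised counts in the knockout, against 143, 267 and 395 in the control, with some overlap (-1.18 ± 0.22, adjusted p = 0.247). Npy2r, the Y2 receptor through which NPY acts back on the neurons that release it, had 2800.3, 3056 and 4379.96 in the knockout, against 4358, 5118 and 6624 in the control, so that the ranges just overlapped. Its difference was -0.63 ± 0.13 (adjusted p = 0.489). Pde2a, a phosphodiesterase that breaks down cAMP when cGMP is high, was without overlap at 51.5, 158 and 195 in the knockout, against 198, 244 and 504 in the control (-1.14 ± 0.27, adjusted p = 0.589). Crispld1, of the cysteine-rich secretory protein family, had -1.62 ± 0.37 (adjusted p = 0.562). Nr1d2, Cnksr2, Npy2r, Crispld1 and Arntl passed with DESeq2.

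The clock genes were compared at each time of day as well as pooled. The core clock genes and clock outputs of the PAR bZIP family that passed the filter on low values numbered 20. With both times pooled none of the 20 passed the adjusted threshold, while 3 were higher and 6 lower at an unadjusted p under 0.05 (all genes: 1.96% higher and 2.72% lower). At ZT2, 4 were higher and 3 lower at an unadjusted p under 0.05, beside 0.642% and 1.49% of all genes. At ZT14, 1 was higher and 9 lower, beside 1.92% and 3.19% of all genes, and Nr1d2 passed the adjusted threshold.

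Among the activators, Npas2, which can take the place of CLOCK, stood at 24.2, 11.97 and 9.62 normalised counts in the knockout at ZT14, against 1.28, 4.53 and 5.2 in the control at ZT14, without overlap. Its log2 difference was 1.82 ± 0.73 at ZT14 (adjusted p = 0.881) and 1.32 ± 0.52 with both times pooled (adjusted p = 0.995 by limma). Clock itself had a pooled difference of 0.19 ± 0.21 (adjusted p = 0.995), and its sign turned with depth as a covariate. Of the activators tested, Arntl was thus the one below the control and Npas2 the one above it at an unadjusted p under 0.05.

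Nr1d2 carried the clearest clock difference. At ZT14 it stood at 106, 83.8 and 134 normalised counts in the knockout, against 1095, 1027 and 789 in the control, and the highest knockout library lay far below the lowest control library. The log2 difference at ZT14 was -3.17 ± 0.32 (SE, n = 3 each, adjusted p = 0.00095 by limma), and Nr1d2 passed under every alternative tried at ZT14. At ZT2 the values were 37.0, 62.9 and 43.1 in the knockout, against 88.6, 128 and 65.0 in the control, without overlap (-0.94 ± 0.32, adjusted p = 1). The gene for the related receptor REV-ERBα, Nr1d1, had 159.8, 166 and 97.4 in the knockout at ZT14, against 327, 249 and 206 in the control at ZT14, without overlap and with a log2 difference of -0.89 ± 0.30 (adjusted p = 0.711). Rora, which activates at the sites where REV-ERBs repress, had -0.63 ± 0.28 at ZT2 (adjusted p = 1).

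Of the repressor genes, Gm129, also named Ciart, encodes CHRONO, which binds BMAL1 and represses it. At ZT14 it stood at 59.7, 18.6 and 25.3 normalised counts in the knockout, against 574, 663 and 433 in the control. The groups lay far apart, with a log2 difference of -4.12 ± 0.66 (adjusted p = 0.0618 by limma and 0.034 by edgeR's quasi-likelihood test). At ZT2 it was low in both, at 18.5, 4.37 and 2.78 in the knockout, against 3.79, 15.2 and 11.6 in the control, where the values overlapped. Per3 at ZT14 stood at 65.4, 117 and 49.3 in the knockout, against 638, 326 and 267 in the control, again without overlap (-2.38 ± 0.50, adjusted p = 0.316 by limma and 0.00114 by DESeq2). Per1, the period gene that also responds to cAMP, had 191, 258 and 136 at ZT14 in the knockout, against 265, 357 and 545 in the control, close but without overlap (-0.98 ± 0.44, adjusted p = 0.959).

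Per2 and Cry1 gave another pattern. Per2, which encodes the period protein that binds cryptochromes, stood at 251, 246 and 302 normalised counts in the knockout at ZT2, against 77.2, 216 and 173 in the control at ZT2. At ZT14 it stood at 288, 241 and 203 in the knockout, against 290.3, 472 and 626 in the control. The log2 difference was 0.89 ± 0.37 at ZT2 (adjusted p = 1) and -0.86 ± 0.37 at ZT14 (adjusted p = 0.959), so the pooled value was 0.01 ± 0.34 and its sign turned under several settings. The knockout values at the 2 times overlapped, and those of the control did not. Cry1, a cryptochrome repressor, had 474, 636 and 268 at ZT2 in the knockout, against 162, 282 and 176 in the control, with overlap in 1 library (1.11 ± 0.32, adjusted p = 1). At ZT14 it had 189.7, 186 and 195 in the knockout, against 129, 170.5 and 149.7 in the control.

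The PAR bZIP transcription factors relay the clock to other genes. Tef at ZT14 stood at 150.1, 95.8 and 185 normalised counts in the knockout, against 642, 563 and 481 in the control, without overlap (-2.002 ± 0.34, adjusted p = 0.0968 by limma and 2.96e-05 by DESeq2). At ZT2 it stood at 216, 137 and 319.96 in the knockout, against 217, 215 and 133 in the control, where the groups overlapped and the sign of the small difference turned when knockout ZT2 replicate 3 or control ZT2 replicate 3 was left out and with depth as a covariate. Hlf had a log2 difference of -0.88 ± 0.38 at ZT14 (adjusted p = 0.959). Dbp had 1.15 ± 0.40 at ZT2 (adjusted p = 1). Nfil3, or E4BP4, the repressor that competes with these factors for the same sites, had 0.76 ± 0.33 at ZT2 (adjusted p = 1).

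**Figure D3:**
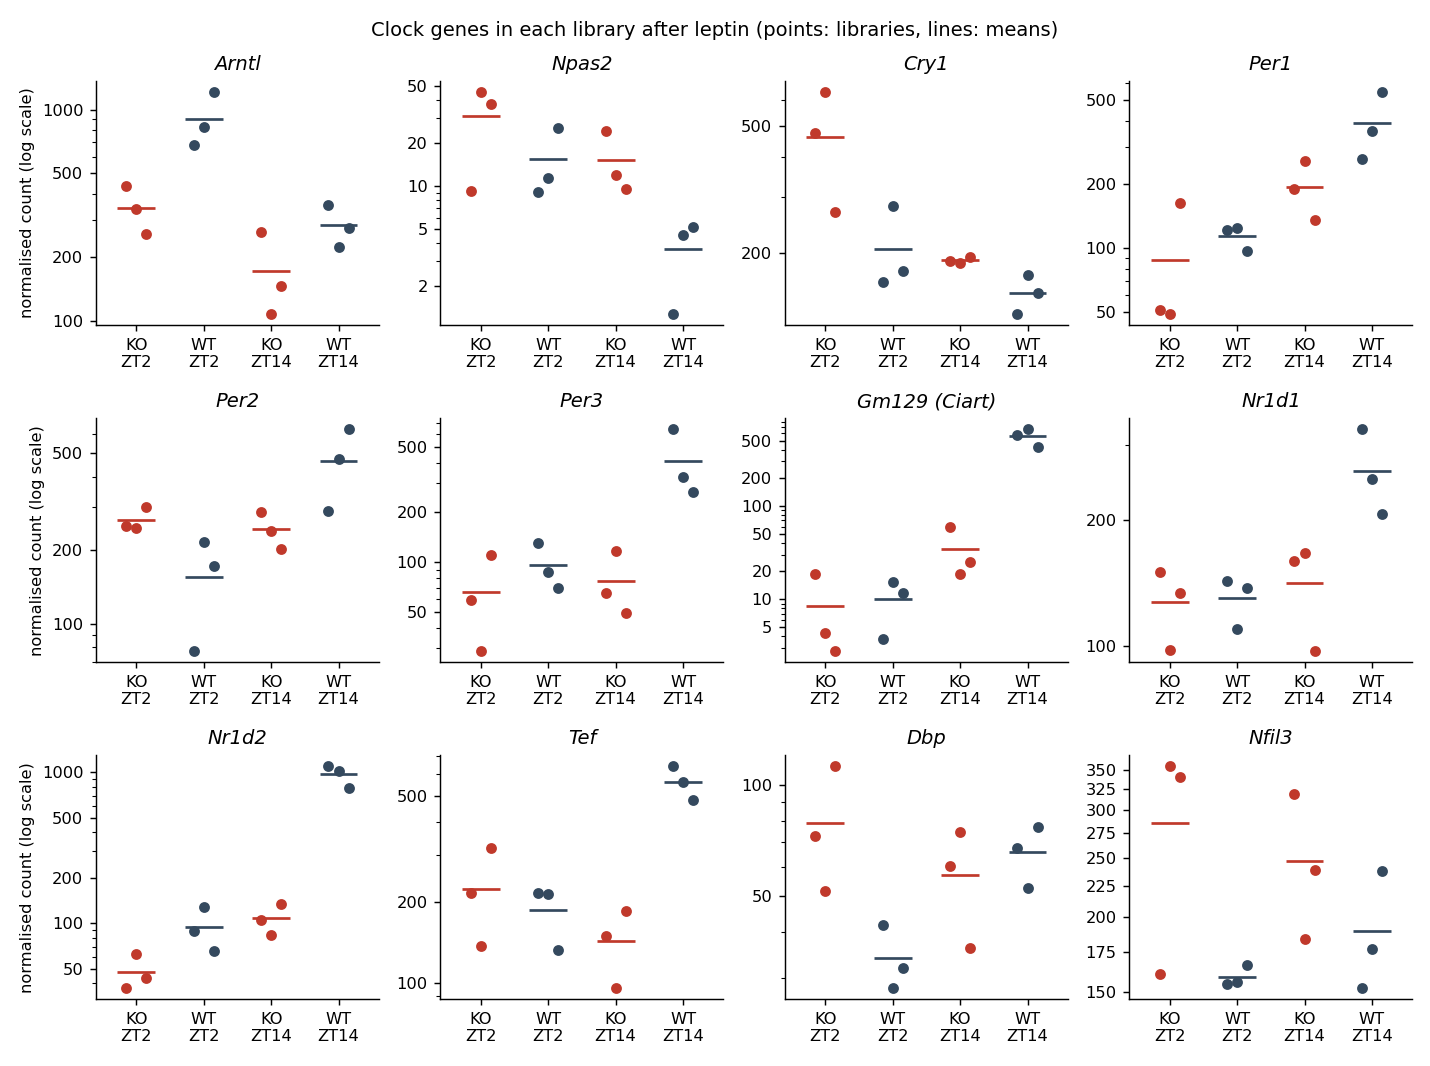
Normalised counts (y axes, log scale) of 12 clock genes in each of the 12 leptin libraries, knockout left of control at ZT2 and at ZT14, with a line at the mean of each group of 3. Nr1d2, Gm129, Per3 and Tef of the control lie well above the knockout at ZT14, while at ZT2 the genotypes lie closer, and Arntl of the knockout lies below the control at ZT2.

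Taken time by time across the genome, 1 gene, Hsd11b2, passed at ZT2 (0.00746% of 13402) and 4 genes passed at ZT14 (0.0298%), of which 3 were higher (0.0224%) and 1 lower. At an unadjusted p under 0.05 there were 286 genes at ZT2 (2.13%) and 685 at ZT14 (5.11%). The 3 knockout and 3 control values did not overlap in 787 genes at ZT2 (5.87%; 2.51% higher and 3.36% lower) and in 1460 genes at ZT14 (10.9%; 5.18% higher and 5.72% lower). Among the 20 clock genes this held for 3 higher and 3 lower at ZT2 and for 2 higher and 7 lower at ZT14. Besides Hsd11b2 and Nr1d2, the genes that passed at ZT14 were Dgkg and Scd3, both higher in the knockout.

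Dgkg at ZT14 stood at 2198, 2282 and 3260.2 normalised counts in the knockout, against 829.9, 1125 and 883 in the control (1.44 ± 0.21, adjusted p = 0.0329 by limma). Scd3, one of the stearoyl-CoA desaturases that make monounsaturated fatty acids, stood at 153, 154 and 111 in the knockout, against 30.7, 36.3 and 33.3 in the control (2.02 ± 0.31, adjusted p = 0.048). Neither overlapped between genotypes, and neither call was firm: without a filter on low values the adjusted p was 0.0507 for Dgkg and 0.127 for Scd3. The number of genes called at ZT14 depended on single libraries, being 2 without any 1 of the 3 knockout ZT14 libraries or without control ZT2 replicate 2 or 3, and 9 without control ZT14 replicate 1. Without both libraries that stood apart, it was 93, of which 11 were higher and 82 lower, the 4 genes above and Gm129, Tef, Rasd2, Cd24a and Dusp1 among them. DESeq2 called 33 at ZT14, 15 higher and 18 lower.

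Whether the knockout difference itself changed between ZT2 and ZT14 was tested as a genotype by time term. No gene passed by limma or by edgeR's quasi-likelihood test, with 354 genes at an unadjusted p under 0.05 by limma (2.64%), and DESeq2 called 4, Nr1d2, Tef, Scd3 and Gm129. Of the 20 clock genes, 7 had an unadjusted p under 0.05 in the interaction, each with the lower value at ZT14, beside 1.54% of all genes in that direction and 1.1% in the other. The largest in size was Gm129, with a difference of differences of -3.69 ± 0.93. Tef had -2.21 ± 0.49 and Nr1d2 -2.23 ± 0.46. Per2 had -1.76 ± 0.52, Per3 -1.70 ± 0.70, Dbp -1.39 ± 0.56 and Cry2 -0.87 ± 0.38. Each of these 7 had an adjusted p of 0.999 by limma.

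The E-box CACGTG, the motif that BMAL1 and CLOCK bind, was searched on both strands in the RefSeq promoter windows of GRCm38.p6, which hold 250 bases before and 50 after each gene's start. Of the 18 clock genes with a window, 5 held it (27.8%), beside 11.6% of the 10620 tested genes with a window and 7.15% of all 32851 windows. The windows of Gm129 (RefSeq symbol Ciart), Tef, Per1 and Cry1 are shown because these genes differ in how their level in the knockout stood to the control at ZT14 while each has a window that holds the motif; a second window of Per1 held none. Letters are in the direction of the gene, and capitals mark CACGTG.
Ciart, chr3:95882179-95882478, minus strand: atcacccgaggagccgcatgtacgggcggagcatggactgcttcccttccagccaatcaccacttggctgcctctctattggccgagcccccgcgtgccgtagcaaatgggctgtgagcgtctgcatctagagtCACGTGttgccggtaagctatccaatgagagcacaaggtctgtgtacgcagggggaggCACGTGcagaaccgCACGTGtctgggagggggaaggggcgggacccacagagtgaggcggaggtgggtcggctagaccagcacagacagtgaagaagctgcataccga
Tef, chr15:81802423-81802722, plus strand: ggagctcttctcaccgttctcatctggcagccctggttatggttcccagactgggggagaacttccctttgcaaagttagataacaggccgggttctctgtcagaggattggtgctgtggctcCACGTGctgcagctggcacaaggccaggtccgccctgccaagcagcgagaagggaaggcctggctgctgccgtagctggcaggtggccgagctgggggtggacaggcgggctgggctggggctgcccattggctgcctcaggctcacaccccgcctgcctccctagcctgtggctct
Per1, chr11:69098699-69098998, plus strand: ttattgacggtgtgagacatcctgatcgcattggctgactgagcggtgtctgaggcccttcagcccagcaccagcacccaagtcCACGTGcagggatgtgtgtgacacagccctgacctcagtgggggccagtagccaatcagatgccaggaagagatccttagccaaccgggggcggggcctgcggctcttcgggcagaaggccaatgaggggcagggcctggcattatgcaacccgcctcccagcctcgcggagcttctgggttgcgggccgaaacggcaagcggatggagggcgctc
Cry1, chr10:85185005-85185304, minus strand: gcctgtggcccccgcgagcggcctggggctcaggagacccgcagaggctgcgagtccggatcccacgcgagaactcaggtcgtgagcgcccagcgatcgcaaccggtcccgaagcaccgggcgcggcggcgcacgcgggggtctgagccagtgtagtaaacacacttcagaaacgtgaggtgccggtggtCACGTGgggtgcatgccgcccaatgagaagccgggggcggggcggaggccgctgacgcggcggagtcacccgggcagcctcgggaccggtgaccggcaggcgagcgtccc

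Ciart held 3 copies, the first at position -116 from the start, and the other windows shown held 1 copy each. Of the genes shown, Gm129 and Tef differed most between genotypes at ZT14, at log2 values of -4.12 and -2.002, Per1 had -0.98, and Cry1 0.35. Bhlhe41, whose window is not shown, also held the motif, first at position -153. At ZT14 it had 35, 16 and 8 reads in the knockout, against 26, 8 and 13 in the control, with overlap. The windows of Nr1d2, Per3 and Arntl held no CACGTG, though the differences of Nr1d2 and Per3 at ZT14, -3.17 and -2.38, were larger in size than that of Tef. A match in these windows describes letters, and the window leaves out more distant sites.

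Genes that define AgRP neurons were close in both genotypes. Of 15 tested identity genes none passed the test, with 5 differences above 0 and 10 below it and a median of -0.12. At an unadjusted p under 0.05, Npy2r was below the control, beside 2.72% of all genes on the lower side. Isl1, a homeodomain factor of arcuate neurons, was above the control at that level (0.27 ± 0.11, adjusted p = 0.995), beside 1.96% on the higher side. Agrp had a difference of 0.28 ± 0.17 and Npy of 0.18 ± 0.17 (adjusted p = 0.995), and both ranges overlapped. In pooled sorted cells, fewer cells of a type and less RNA per cell cannot be told apart.

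On the leptin pathway, Lepr, the leptin receptor gene, stood at 838, 1474 and 1774 normalised counts in the knockout, against 816, 1170.3 and 1521 in the control (0.28 ± 0.17, adjusted p = 0.995). Socs3, the feedback inhibitor that leptin induces, stood at 64.0, 263 and 644 in the knockout, against 63.9, 311 and 818 in the control. Its difference was 0.02 ± 0.58 (adjusted p = 1) and changed sign when single libraries were left out, so no direction can be given for it. Of 15 genes of the receptor and JAK-STAT pathway none passed; Ptpn2, a phosphatase that acts on JAK kinases and STATs, had 0.36 ± 0.16 (adjusted p = 0.995), and Stat5b, a transcription factor of the same family as STAT3, -0.48 ± 0.23 (adjusted p = 0.995). Of 8 SOCS genes none passed; Socs2 had 0.23 ± 0.11 (adjusted p = 0.995).

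Of 15 genes listed as leptin-induced, none passed the test, 12 had a difference above 0 and 3 below it, and the median was 0.23, above 0 under every alternative tried and beside 0.004 over all genes. Cd24a, Atf3, a stress-induced transcription factor, and Asb4, a hypothalamic SOCS-box protein, were the 3 at an unadjusted p under 0.05 and above the control, beside 1.96% of all genes on the higher side. Atf3 stood at 2033, 3522 and 5519 normalised counts in the knockout, against 1198, 2001 and 3276 in the control, a log2 difference of 0.80 ± 0.21 (adjusted p = 0.843), and Asb4 had 0.43 (adjusted p = 0.924). The same list had a median of -0.26 in the comparison of genotypes after PBS. The difference between those medians was not tested.

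Several other gene groups stood to one side while no member passed. Their counts stand beside 6808 differences above 0 and 6594 below it over all genes tested. Of 27 potassium channel genes, which set the resting potential and firing of neurons, 26 had a difference below 0 and 1 above it, with a median of -0.25 (range -0.36 to -0.16 over the alternatives). Kcnk2, a leak channel, had -0.26 ± 0.13 (adjusted p = 0.995) and Kcna2, a delayed rectifier of axons, -0.59 ± 0.31 (adjusted p = 0.995), the smallest p-values of the list. Calcium, sodium, HCN and TRP channels had 9 above and 20 below 0, with a median of -0.17. Of these, Hcn3 (-0.67, adjusted p = 0.995) and Scn1a (-0.55, adjusted p = 0.995) were below the control at an unadjusted p under 0.05, beside 2.72% of all genes. Of 16 immediate early genes, which respond to recent activity of a neuron, 4 had a difference above and 12 below 0, with a median of -0.44; Dusp1, a phosphatase of MAP kinases, had -1.16 ± 0.56 (adjusted p = 0.995). Genes of cholesterol and fatty acid synthesis had 5 above and 21 below 0, with a median of -0.14. After PBS the potassium channel genes had 15 above and 14 below 0, with a median of 0.004. The other channel list then had 16 above and 13 below 0, immediate early genes 2 and 15, and the synthesis genes 10 and 16.

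On the other side stood genes of protein turnover and respiration. The 31 proteasome genes had 27 differences above 0 and 4 below it, with a median of 0.14 that stayed above 0 under every alternative; Psmc1, an ATPase of the proteasome cap, had 0.25 ± 0.12 (adjusted p = 0.995). The 73 cytosolic ribosomal protein genes had 70 above and 3 below 0 and a median of 0.12, but this turned to -0.04 with depth as a covariate and to -0.0015 without knockout ZT2 replicate 3, and was 0.001 without control ZT14 replicate 2 and 0.30 without control ZT14 replicate 1. The 74 oxidative phosphorylation genes had 67 above and 7 below 0 and a median of 0.09, which turned to -0.01 with depth as a covariate. Without control ZT14 replicate 2 this median was 0.004, with 41 above and 33 below 0, and without control ZT14 replicate 1 it was 0.26. Knockout libraries were sequenced less deeply than the control libraries, at the medians given above, and the part of depth in these shifts was tested only by that covariate. After PBS the proteasome genes had 15 above and 16 below 0, the ribosomal protein genes 35 and 38, and the oxidative phosphorylation genes 28 and 46. Members of 1 list share libraries and may share regulation, so these counts describe the lists and are no test of them.

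Interferon-induced genes lay on both sides, with 6 of 18 above 0 and 12 below it, a median of -0.23 and none that passed. Ifit3, an antiviral protein that binds foreign RNA complexes, stood at 6.12, 19.3 and 55.5 normalised counts in the knockout, against 25.4, 91.5 and 195 in the control (-1.86 ± 0.51, adjusted p = 0.843 by limma). Ifit2 had -0.96 ± 0.38 (adjusted p = 0.995), while Isg15, the ubiquitin-like modifier, had 1.74 ± 0.56 (adjusted p = 0.995). Of 12 glucocorticoid-responsive genes, a group that bears on Hsd11b2, none passed, with 7 differences above 0 and 5 below it and a median of 0.05 whose sign turned in 9 of 26 settings. Those at an unadjusted p under 0.05 were 3, all above the control, beside 1.96% of all genes on the higher side: Cdkn1a, a cell cycle inhibitor (0.95 ± 0.27, adjusted p = 0.894), and the metallothioneins Mt1 (0.66 ± 0.24, adjusted p = 0.995) and Mt2 (0.83, adjusted p = 0.995).

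**Figure D4:**
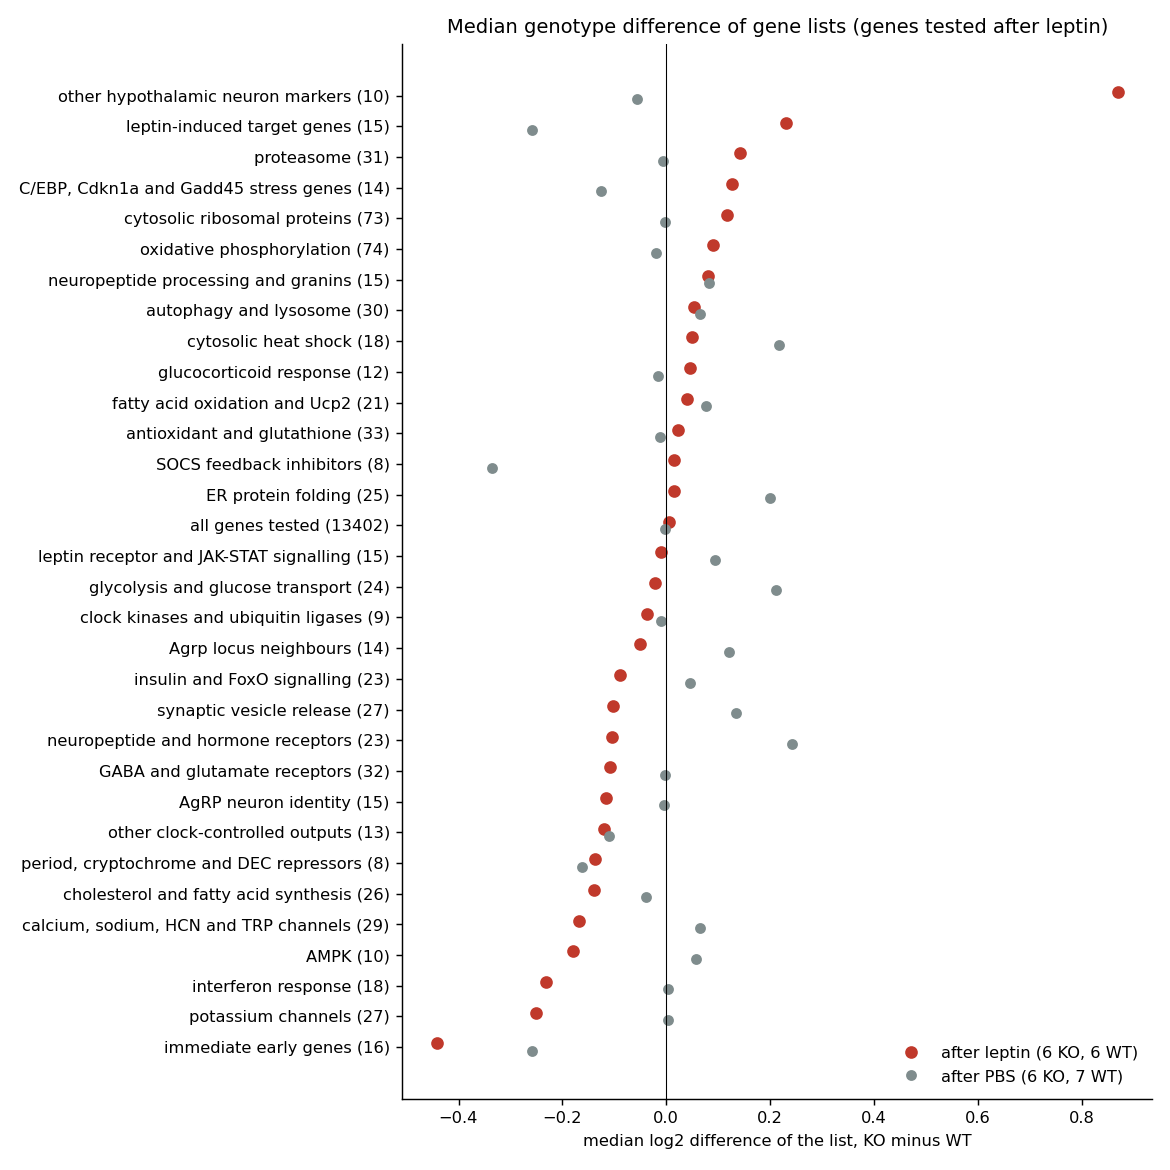
Median difference between knockout and control after leptin (x axis, log2; red) for the gene lists with at least 8 tested genes, with that number in brackets and the combined clock list left out. Grey points give the median of the same lists after PBS, over the genes tested there, which differ in number for some lists. Of the lists drawn, the other hypothalamic neuron markers stand highest after leptin, at 0.87, and immediate early genes lowest, at -0.44, while the median over all genes lies at 0.004.

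Markers of other cells were measured in the same libraries. All 10 tested markers of other hypothalamic neurons had a difference above 0, with a median of 0.87 (range 0.57 to 1.25 over the alternatives). Without the filter on low values, 11 of 14 such markers were above 0 and 3 below it, with a median of 0.72. The filter can admit a low gene through 1 genotype, so the sign count of the filtered markers is no test. The summed level of the listed markers was 9034 to 44618 normalised counts in the knockout (median 21541), against 7346 to 22046 in the control (median 14061), with 2 of the 16 markers, Kiss1 and Tac2, at 0 in all 12 libraries. Avp, the vasopressin gene, stood at 3.99, 26.6 and 105 in the knockout, against 4.54, 5.77 and 13.7 in the control (1.602 ± 0.61, adjusted p = 0.995), and Gal, the galanin gene, had 0.88 ± 0.37 (adjusted p = 0.995). The stress peptide gene Crh had 2.24, with a range of 1.52 to 2.97 with 1 library left out, and stood at 167 normalised counts in knockout ZT2 replicate 3, against at most 18.5 in the other 5 knockout libraries. The lowest value of that range was without this library. In the control the highest Crh values were 12.5 and 3.31, so Crh passed the filter through knockout libraries. Slc17a6, the glutamate transporter gene of excitatory neurons, had 1.45. These 4 genes had an unadjusted p under 0.05, beside 1.96% of all genes on the higher side, and none passed after adjustment. Their part in the other results was not tested.

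The summed levels of glial and vascular markers overlapped between genotypes. Astrocyte markers summed to 1429 to 4111 normalised counts in the knockout (median 2105), against 3062 to 4128 in the control (median 3550). Most of these sums came from 1 gene, Aldoc, an aldolase that also stands in the glycolysis list. It had 913 to 3892 reads per knockout library and 2637 to 9436 per control library. Agt, the astrocyte marker of the angiotensin pathway, had 22 to 768 and 14 to 251. The sums therefore do not measure astrocyte content apart from Aldoc. Agt had a log2 difference of 2.01 ± 0.57 (adjusted p = 0.894) and Aldoc of -0.76 ± 0.19 (adjusted p = 0.776). The 7 tested astrocyte markers had a median difference of -0.44 at ZT2 and 0.40 at ZT14. All 7 had a genotype by time term above 0 (median 1.89), with 1 at an unadjusted p under 0.05, beside 1.1% of all genes on that side. Since the filter can admit a low marker through 1 group, this sign count is no test. Oligodendrocyte markers summed to 989 to 1712 in the knockout, against 964 to 1861 in the control, and microglial markers to 588 to 889 in the knockout, against 556 to 714 in the control. POMC neuron markers summed to 4891 to 6565 in the knockout, against 2806 to 6275 in the control. Endothelial and pericyte markers summed to 113 to 196 in the knockout, against 76.9 to 294 in the control, tanycyte and ependymal markers to 1141 to 2345 in the knockout, against 1171 to 1607 in the control, and the microglial genes C1qa and C1qc were at 0 in all 12 libraries. These sums are far below the 392794 to 683521 in the knockout and 369928 to 600092 in the control for the AgRP identity genes. The 6 tested tanycyte and ependymal markers had a median difference of -1.46 at ZT2 and 0.82 at ZT14, and of -0.10 with both times pooled. None had an unadjusted p under 0.05 at either time. Some were near the floor: Ccdc153 at ZT2 had 0 reads in every knockout library, against 78, 0 and 62 in the control. No direction is drawn from these medians. Of the endothelial markers, Ly6c1 at ZT14 stood at 29.9, 34.6 and 43.3 in the knockout, against 6.39, 7.26 and 5.2 in the control, without overlap (2.34 ± 0.54, adjusted p = 0.446 by limma and 0.0437 by DESeq2). These control values rest on 5, 8 and 5 reads. Of the 5 tested endothelial and pericyte markers, 4 were above and 1 below 0 at ZT14, and 3 above and 2 below with both times pooled. At ZT14, 1 was higher at an unadjusted p under 0.05, beside 1.92% of all genes. The part of these markers in the other results was not tested.

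The genotypes were also compared after PBS, in 6 knockout and 7 control libraries that share none with those after leptin. In that set the library labelled control ZT2 replicate 2 had Nr1d2, Gm129 and Per3 at 1208, 364 and 275 normalised counts, against at most 119, 6.15 and 70.9 in the other 3 control ZT2 libraries, a clock profile that goes against its time label. With genotype as labelled, 7 of 13463 genes passed after PBS (0.052%), 2 higher and 5 lower (0.0371%) in the knockout, and 1151 (8.55%) had an unadjusted p under 0.05 (3.71% higher and 4.84% lower). Of the 20 clock genes, 3 were higher and 6 lower at that level after PBS. Hsd11b2 stood at 2442, 2827 and 3293 in the knockout after PBS, against 0, 2.05 and 19.7 in the control (9.65 ± 0.56, adjusted p = 6.42e-08 by limma). Fstl5 had 1.205 ± 0.25 after PBS (adjusted p = 0.175), a difference close in size to that after leptin that did not pass. Of 9 tested astrocyte markers, 6 were lower in the knockout after PBS at an unadjusted p under 0.05 (list median -1.61). Over the astrocyte markers tested after leptin, the median after PBS was -0.62. The same held for 3 of 6 tanycyte and ependymal markers (list median -2.02), beside 4.84% of all genes on the lower side. The filter can admit a low marker through the genotype where it is high, so these counts and medians are no test. The part of these markers in the results after PBS was not tested.

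The other genes that passed after PBS were not called after leptin. Pde5a, a phosphodiesterase of cGMP, had 2.26 ± 0.35 after PBS (adjusted p = 0.0205) and 1.26 ± 0.38 after leptin (adjusted p = 0.945). Ifit3 had -3.68 ± 0.52 after PBS (adjusted p = 0.0106), and -1.86 after leptin as above. Arhgef26, a guanine nucleotide exchange factor, had -2.05 ± 0.28 after PBS (adjusted p = 0.0106), and Prkar2b, a regulatory subunit of protein kinase A, -1.55 ± 0.26 (adjusted p = 0.0343). With 1 of the 13 libraries left out, Prkar2b no longer passed in 10 fits (adjusted p up to 0.137) and Pde5a in 4 (up to 0.125), while Ifit3 and Arhgef26 passed in each. Nr1d2 had -2.86 ± 0.58 after PBS (adjusted p = 0.155) and Gm129 -2.23 ± 1.00 (adjusted p = 0.572). Without the control ZT2 library that goes against its time label, 6 genes passed, Nr1d2 had -2.44 and Gm129 -1.55, and Fstl5 had 1.26. The count after PBS was 3 without a filter on low values and between 3 and 8 with 1 library left out, 3 without knockout ZT2 replicate 3 or 4 or control ZT14 replicate 2 or 3, and 4 without knockout ZT14 replicate 2, control ZT14 replicate 1, or control ZT2 replicate 1 or 3.

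Across the 13171 genes tested after both treatments, 6679 (50.7%) had the same sign. Of the 616 of them with an unadjusted p under 0.05 after leptin, 405 (65.7%) had the same sign after PBS, and 81 (13.1%) were under 0.05 there as well with that sign. Those 81 were 7.26% of the 1116 genes under 0.05 after PBS. Without the control ZT2 library that goes against its time label, the shares with the same sign were 51.7% of all genes and 66.1% of the genes under 0.05 after leptin.

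**Figure D5:**
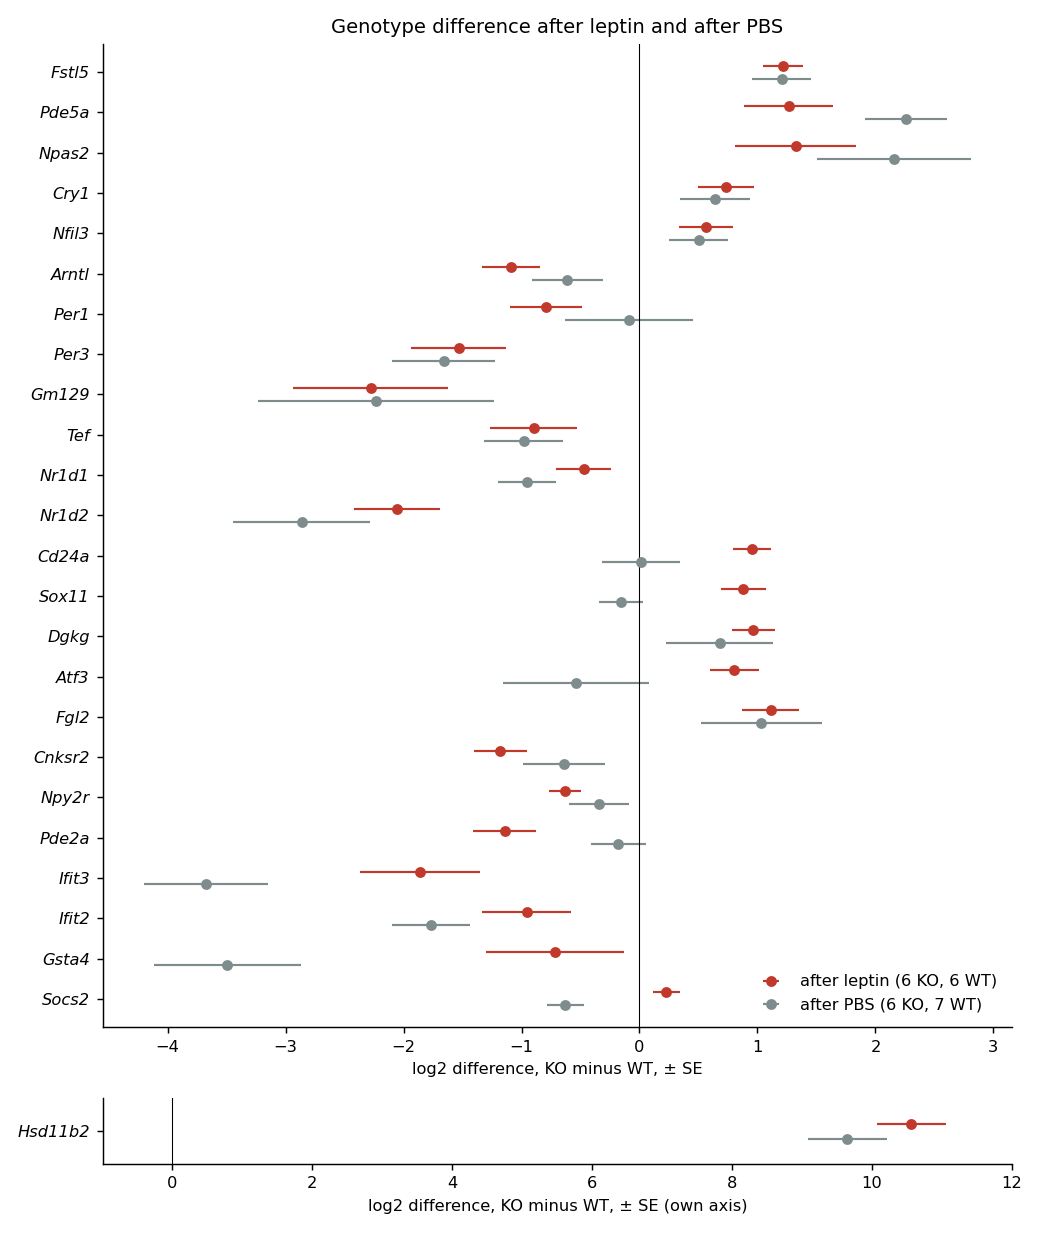
Difference between knockout and control (x axis, log2, with SE) of named genes after leptin (red, 6 knockout and 6 control libraries) and after PBS (grey, 6 and 7), with Hsd11b2 on an axis of its own. Hsd11b2 lies at 10.56 after leptin and 9.65 after PBS and Fstl5 at 1.21 and 1.205, while Cd24a and Sox11 lie at 0.95 and 0.88 after leptin and near 0 after PBS.

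Whether the genotype difference itself depended on leptin was tested as a genotype by treatment term over the 25 libraries. None of 13942 genes passed by limma or by edgeR's quasi-likelihood test, with 663 (4.76%; 2.59% on the higher and 2.17% on the lower side) and 670 genes at an unadjusted p under 0.05, and DESeq2 called 1, Socs2. Socs2, a SOCS gene that limits growth hormone signalling, had 1464, 1874 and 1646 normalised counts in the knockout at ZT2 after leptin, against 1444, 1554 and 1541 in the control, and 1786, 1525 and 1753 at ZT14 in the knockout, against 1331, 1337 and 1359 in the control. Its genotype difference was 0.23 ± 0.11 after leptin and -0.63 ± 0.16 after PBS, with an interaction of 0.86 ± 0.18 (adjusted p = 0.807 by limma). Sox11 had an interaction of 1.04 ± 0.27 (adjusted p = 0.919) and Cd24a of 0.97 ± 0.43 (adjusted p = 0.919). For Hsd11b2 the interaction was 0.89 ± 0.81 (adjusted p = 0.924), and a difference between treatments was not detected. Of 9 astrocyte markers, 7 had an interaction above 0 and 2 below it, with a median of 2.19. At an unadjusted p under 0.05, 3 of these markers were on the higher side, beside 2.59% of all genes. Here too the filter can admit a low marker through 1 group, so these counts are no test. The part of the astrocyte markers in the other interactions was not tested.

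The 5 ZT5 libraries could not carry the comparison. Hsd11b2 had 3588, 4573 and 11.2 normalised counts in the 3 libraries labelled knockout, against 4628 and 0 in the 2 labelled control, so 1 library of each label goes against the pattern of all 25 leptin and PBS libraries, and no direction is drawn from them. With the labels as given none of 12350 genes passed by limma or by edgeR's quasi-likelihood test, with 1093 (8.85%; 5.51% higher and 3.34% lower) and 969 genes at an unadjusted p under 0.05, and DESeq2 called 99. Leaving out the library labelled control replicate 1 gave 467 calls.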

How the data were processed

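RNA was measured in sorted AgRP neurons, and the authors deposited 1 table of 23337 genes by 80 libraries. Its values are normalised counts, a signal per gene scaled for library depth by the authors; the tools named are STAR 2.5.1, featureCounts and Subread for reads on mm10, then DESeq and DESeq2 under R 3.5.1, per the submitters' processing notes, and strand and annotation are not given in the sources used here. Dividing each library by its smallest step gave whole reads (at least 99.99% of values whole within 0.1) and total reads of 9.91 to 34.0 M (M, 1e6) per leptin library; these cover counting error only, since PCR copies of amplified RNA are not separate molecules.

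The test was planned for normalised values: limma 3.58.1 in R 4.3.3 with a mean-variance trend on log2(value + 1), which understates the change of low genes, over genes with at least 10 in at least 3 libraries of the comparison. Genotype and ZT were the terms in the pooled fit, and 4 groups were used for the fits at ZT2 and ZT14 and their interaction, so all 12 libraries share 1 estimate of spread. P-values were two-sided and adjusted over all genes tested by Benjamini-Hochberg, with a threshold of 0.05. edgeR 4.0.16 quasi-likelihood and DESeq2 1.42.0 on the recovered reads, other pseudocounts, filters and scalings, library weights, a depth covariate, a replicate block and each library left out were the alternatives; leaving out both libraries that stood apart was added after seeing the data. On simulated data for the pooled leptin comparison over 13402 genes, limma recovered 56% of 100 genes changed by 2-fold and 98% of 100 changed by 4-fold, calling 8 unchanged genes, and at ZT14 19% and 80%, calling 9. Changed genes were drawn only from those above a minimum mean, so these rates do not cover genes of low value. The simulation held no time effect and no deviation shared by the genes of a library, such as that of the libraries that stood apart.

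Members and gene lists were chosen with earlier results of these data known. Named genes were up to 12 called genes per direction, ranked by size, with a mean log2 value of at least 5, then up to 6 of the smallest p, a set of clock and AgRP genes, every member of the clock and Agrp locus lists, of each other list up to 4 called members (up to 2 where none was called), 44 lists in all, and up to 5 genes of the smallest adjusted p in each other comparison. Beyond that rule, the single genes Asb4, Crh, Slc17a6 and Mt2 and those that an alternative tool called were named after their values were seen. No 2 libraries held identical values. Gene positions are from GENCODE M21 and promoter letters from RefSeq, both on GRCm38. Figures were drawn with matplotlib 3.10.9.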

Additional observations from a re-analysis of the deposited data

Results flagged for a closer look

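In each group of 6 leptin libraries of 1 genotype, the highest and the lowest value of each main gene were set against the nearest other library. Of 136 groups examined, 15 had a library set apart from the other 5 by a gap wide for its group. The rule flags about 1 in 20 groups when values are normally distributed in 1 population. These were normalised counts without a log, from both ZT2 and ZT14, so that rate does not hold here. The number of flags therefore does not show that libraries are unusual. No explanation was weighed for any of them. Among the genes of the main results, Hsd11b2 had 7.57 normalised counts in control ZT2 replicate 1, the highest of the control, with the next at 2.72. Fstl5 had 974 in knockout ZT2 replicate 3, with the next at 587. Sox11 had 5488 in knockout ZT14 replicate 3, with the next at 3545, and Mt1 had 14916 in the same library, with the next at 8285.

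Of the clock genes, Cry1 had 282 in control ZT2 replicate 2 (next 176), Nfil3 had 238 in control ZT14 replicate 3 (next 177), and Hlf had 453 in control ZT14 replicate 1 (next 209). The cAMP-pathway gene Crem had 2777 in the same library, control ZT14 replicate 1 (next 1731). Ptpn2 had 555 in control ZT2 replicate 3, the lowest of its group (next 815). Ifit2 had 591 in control ZT2 replicate 1 (next 230.2), and Agt had 261 in control ZT14 replicate 3 (next 48.6). Galr1, a galanin receptor gene, had 35.9 in knockout ZT14 replicate 2 (next 15.03) and 19.4 in control ZT2 replicate 3 (next 3.03). Crh had 167 in knockout ZT2 replicate 3 and 12.5 in control ZT14 replicate 3, the highest of each genotype.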

How the results depend on the processing

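Hsd11b2 kept its direction and its call after leptin under every alternative tried, pooled and at each time, and Nr1d2 kept its call at ZT14. The number of genes called after leptin with both times pooled, 2, was 15 with DESeq2, 6 with library weights, 4 with depth as a covariate, and 1 over all 25 libraries, without the ZT term, or without the 2 libraries that stood apart (1 to 4 with 1 library left out). At ZT2 the 1 gene called became 7 without a filter, 2 with DESeq2 and 10 with library weights (1 with any library left out). At ZT14 the 4 called became 2 without a filter, 33 with DESeq2, 1945 with library weights, which did not converge, and 93 without the 2 libraries that stood apart (2 to 9). For the genotype by time term, 0 became 1 without a filter, 4 with DESeq2, 68 with library weights and 1 without the 2 libraries that stood apart (0 to 1). After PBS the 7 became 3 without a filter, 61 with DESeq2 and 3 with depth (3 to 8). For genotype by treatment, 0 became 1 with DESeq2 (0 with any library left out). At ZT5, 0 became 99 with DESeq2 (0 to 467). The share of promoters with a motif was 17.2% when CACGTT was counted too, beside 11.6%. The causes were not tested.

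The replicate numbers are shared across groups. Same-numbered knockout and control libraries after leptin at the same time did not deviate together (correlations of -0.29 to 0.11). Pairing by number between leptin and PBS libraries was not tested. In control ZT14 replicates 1, 2 and 3, Eif2s3y was 1497, 996 and 880 after leptin and 1466, 959 and 882 after PBS. In the knockout at ZT14 it was 1149, 1164 and 1211 after leptin and 682, 946 and 1091 after PBS. A collection shared by number across treatments is therefore not excluded. With the replicate number as a block the count stayed at 2 pooled and 1 at ZT2, was 2 in place of 4 at ZT14 (Dgkg and Scd3 at adjusted p = 0.101), 5 in place of 7 after PBS, 0 for both interactions, and 1 at ZT5.

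These values of named genes turned sign, with none of them called. Per2 after leptin, 0.01 pooled, was -0.079 with edgeR's quasi-likelihood test, -0.076 with DESeq2, -0.36 with library weights, -0.16 with depth and -0.18 without the 2 libraries that stood apart (-0.28 to 0.22 with 1 left out). With depth, Clock was -0.013 and Rora 0.019. At ZT2, Gm129 was 0.25 with depth and 0.045 without those 2 libraries (-1.14 to 0.045), and Tef -0.31 and -0.091 (-0.091 to 0.52). With 1 library left out, Socs3 was -0.42 to 0.48 and Cry2 -0.18 to 0.11. After PBS, Cd24a was -0.0080 with the quasi-likelihood test and -0.0054 with DESeq2 (-0.15 to 0.27). At ZT5, where labels and Hsd11b2 disagree, Fstl5 was 0.010, 0.0039 and 0.16 with the quasi-likelihood test, DESeq2 and the block (-0.64 to 0.16), Hsd11b2 -1.42 and Nr1d2 1.16 with library weights (-2.98 to 9.19 and -3.75 to 0.30), and Arntl -0.59 to 0.36. At ZT14 the recovery of 2-fold changes on simulated data limits what 3 libraries a group can show.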
